A study of Mus musculus with 8 samples.

Results

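Krt6a, Krt6b, Krt16, Krt17 and Krt75 are keratin genes of the companion layer and of the inner layer of the hair follicle bulge. They were chosen by symbol, with their values in these libraries already known, and all 5 are present among the 28792 gene symbols of the RNA tables. The series has 8 samples. Of these, 4 are RNA sequencing libraries of hair follicle stem cells sorted from mouse back skin, and 4 are chromatin samples that were not analysed here.

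The RNA libraries form 2 pairs, and each group is 1 library. In the first pair the cKO library has the genotype K15CrePGR;Ctnnb1fl/fl with Rosa-YFPfl/stop/fl, and the Het library has K15CrePGR;Ctnnb1+/fl with the same reporter. Both came from female mice of strain C57BL6/129Sv at day 99, both carry the Cre driven by the Krt15 promoter, and the Het cells also carry a floxed copy of Ctnnb1, the gene of β-catenin. The second pair is LacZ(+) and LacZ(-) bulge stem cells of Axin2LacZ/+ males of strain C57BL6 at day 24, taken as follicles passed out of rest and separated by the activity of the reporter. The labels place the first pair both in telogen, the rest phase, and at the start of anagen, the growth phase. The pairs thus differ in sex, age, strain and genotype. The sources used here do not say how many animals gave each library, or whether a drug was given to activate the Cre.

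Keratins are the intermediate filament proteins of epithelial cells, and a filament needs a type I and a type II chain. Krt6a, Krt6b and Krt75 encode type II chains, and Krt16 and Krt17 encode type I chains. Krt75 is best known from the companion layer, the single cell layer between the outer and inner root sheaths. Krt6 proteins mark that layer and the inner bulge, whose differentiated cells hold the old hair in place and act on the stem cells around them. Krt6, Krt16 and Krt17 are also switched on in wounded or hyperproliferative epidermis, and Krt17 is present in the outer root sheath.

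Values are FPKM as deposited, fragment counts that the authors scaled by transcript length and library size, which allow levels to be compared between genes. Read counts cannot be had from them, so depth is unknown and no interval can be given. Differences are log2 ratios of FPKM + 1, and a gene is called past the 2-fold line at 1 or more, or -1 or less. With 1 library per group there is no replicate check and no test, and every value below describes these libraries only. The tables of the pairs were normalised separately, so levels are set across pairs only side by side. In such bulk samples a lower level can mean fewer cells of a type or less RNA per cell, which cannot be told apart.

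The targeted gene does not check the first pair's labels, since a gene-level value does not resolve the deleted part. Ctnnb1 stood at 370 FPKM in the cKO library and 251 FPKM in the Het library, opposite to a loss, and both are called cKO-labelled and Het-labelled cells from here on. Axin2, a Wnt target, stood at 2.12 FPKM in cKO-labelled cells and 16.3 FPKM in Het-labelled cells, and at 19.0 FPKM in LacZ(+) cells and 9.10 FPKM in LacZ(-) cells. All 7 outer bulge markers were above 0 in every library except Krt15, listed at 0 in LacZ(-) cells, and Krt5, of basal keratinocytes, lay between 5272 and 8690 FPKM. Among the bulge markers Tcf7l1 was the lowest besides that 0, at 10.9 to 14.6 FPKM, and Cd34 lay between 223 and 752 FPKM. The 6 suprabasal epidermis markers summed to 833 to 2334 FPKM, and the 6 upper follicle and sebaceous markers found to 195 to 502 FPKM. Defining markers of cell types other than keratinocytes were low. The summed level of 6 leukocyte markers lay between 3.51 and 8.56 FPKM, that of 6 fibroblast markers between 10.9 and 23.1 FPKM and that of 3 endothelial markers between 0.134 and 0.324 FPKM. The 6 melanocyte markers summed to 28.4 to 47.2 FPKM, with Mitf, a factor also found outside that lineage, as the highest in 3 libraries.

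The 5 genes lie in both keratin clusters of the mouse genome, and the table's coordinates (taken as mm9) give each its own interval with no other row overlapping it. On chromosome 15, Krt75 (ENSMUSG00000022986, 101393775 to 101404335), Krt6b (ENSMUSG00000023041, 101506464 to 101510720) and Krt6a (ENSMUSG00000058354, 101520362 to 101524738) precede Krt5, the basal type II keratin. Krt6b and Krt6a are direct neighbours 9641 bases apart, and the Krt6a interval ends 12761 bases before Krt5. On chromosome 11, Krt16 (ENSMUSG00000053797, 100107404 to 100110276) and Krt17 (ENSMUSG00000035557, 100117530 to 100122343) are direct neighbours 7253 bases apart, followed by Krt42 after 1851 bases.

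Of the 5 genes, Krt75 alone has a promoter in the RefSeq table used here (GRCm38.p6). For that reason its 250 bases before the start are shown (chr15:101573905-101574154, minus strand, 5′ to 3′).
Krt75 promoter: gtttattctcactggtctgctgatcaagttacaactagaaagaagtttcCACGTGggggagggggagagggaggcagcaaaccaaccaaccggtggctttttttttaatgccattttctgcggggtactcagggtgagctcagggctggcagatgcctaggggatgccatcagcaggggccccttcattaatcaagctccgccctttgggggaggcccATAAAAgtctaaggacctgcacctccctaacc
The capitals mark an E-box, CACGTG, that begins 201 bases before the start, and a TATA-like run, ATAAAA, that begins 32 bases before it. Both were searched on both strands and were chosen after the sequence was seen. CACGTG is in 6.02% and ATAAAA in 17.0% of the 32851 promoter windows of this length. The core CTTTGA bound by TCF and LEF factors, found in 13.8% of the windows, and the AP-1 motif TGANTCA, found in 6.75%, have no match in these letters. The motifs do not overlap in this window, and a match is a description of letters only.

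Krt6a was the main Krt6 gene in every library. It stood at 415 FPKM in cKO-labelled cells, against 168 FPKM in Het-labelled cells, a log2 difference of 1.29. LacZ(+) cells had 170 FPKM and LacZ(-) cells 480 FPKM, a log2 difference of -1.50. The high libraries were thus those of cKO-labelled and LacZ(-) cells, where Krt6a ranked 250 and 236 among all symbols by FPKM. The low libraries were LacZ(+) and Het-labelled, where it ranked 498 and 474.

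Krt6b, the neighbouring and very similar gene, had the same order of libraries about an order of magnitude lower. It stood at 44.7 FPKM in cKO-labelled cells, against 17.4 FPKM in Het-labelled cells, a log2 difference of 1.32. In LacZ(+) cells it stood at 19.8 FPKM and in LacZ(-) cells at 52.0 FPKM, a log2 difference of -1.35. The ratio of Krt6a to Krt6b was 9.27 in cKO-labelled cells, 9.70 in Het-labelled cells, 8.57 in LacZ(+) and 9.22 in LacZ(-) cells. It therefore stayed near one value while both genes differed by more than 2-fold within each pair. The sources used here do not say how reads that match both copies were assigned, and the part of shared reads in this steady ratio was not tested. Their summed level, which depends less on that split, was 459 FPKM in cKO-labelled and 186 FPKM in Het-labelled cells, and 189 FPKM in LacZ(+) and 532 FPKM in LacZ(-) cells.

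Krt17, a type I chain, went the other way from the Krt6 genes in the first pair. It stood at 152 FPKM in cKO-labelled cells, against 407 FPKM in Het-labelled cells, a log2 difference of -1.41. LacZ(+) cells had 1124 FPKM and LacZ(-) cells 828 FPKM, a log2 difference of 0.44, within the 2-fold line. Krt17 was the highest of the 5 genes in the Het-labelled, LacZ(+) and LacZ(-) libraries, and Krt6a was the highest in cKO-labelled cells. Among all symbols Krt17 ranked 568 in cKO-labelled and 227 in Het-labelled cells, and 90 in LacZ(+) and 141 in LacZ(-) cells.

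Krt16, which lies beside Krt17 and is also a type I chain, did not show the first-pair difference of Krt17. It stood at 25.8 FPKM in cKO-labelled cells, against 16.5 FPKM in Het-labelled cells, a log2 difference of 0.62. In LacZ(+) cells it stood at 34.0 FPKM and in LacZ(-) cells at 21.0 FPKM, a log2 difference of 0.67. Both values lay within the 2-fold line. The ratio of Krt17 to Krt16 was 5.89 in cKO-labelled cells, against 24.7 in Het-labelled cells, and 33.1 in LacZ(+) against 39.4 in LacZ(-) cells. The cKO-labelled library thus had the lowest ratio of the 4.

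Krt75, the companion layer keratin, was the lowest of the 5 genes everywhere. It stood at 8.94 FPKM in cKO-labelled cells and 9.28 FPKM in Het-labelled cells, a log2 difference of -0.05. In LacZ(+) cells it stood at 2.32 FPKM, against 7.87 FPKM in LacZ(-) cells, a log2 difference of -1.42. LacZ(+) was the single low library, and the other 3 lay between 7.87 and 9.28 FPKM. At these levels the choice of pseudocount matters, and with 5 in place of 1 the LacZ difference was -0.81, inside the line.

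**Figure D1:**
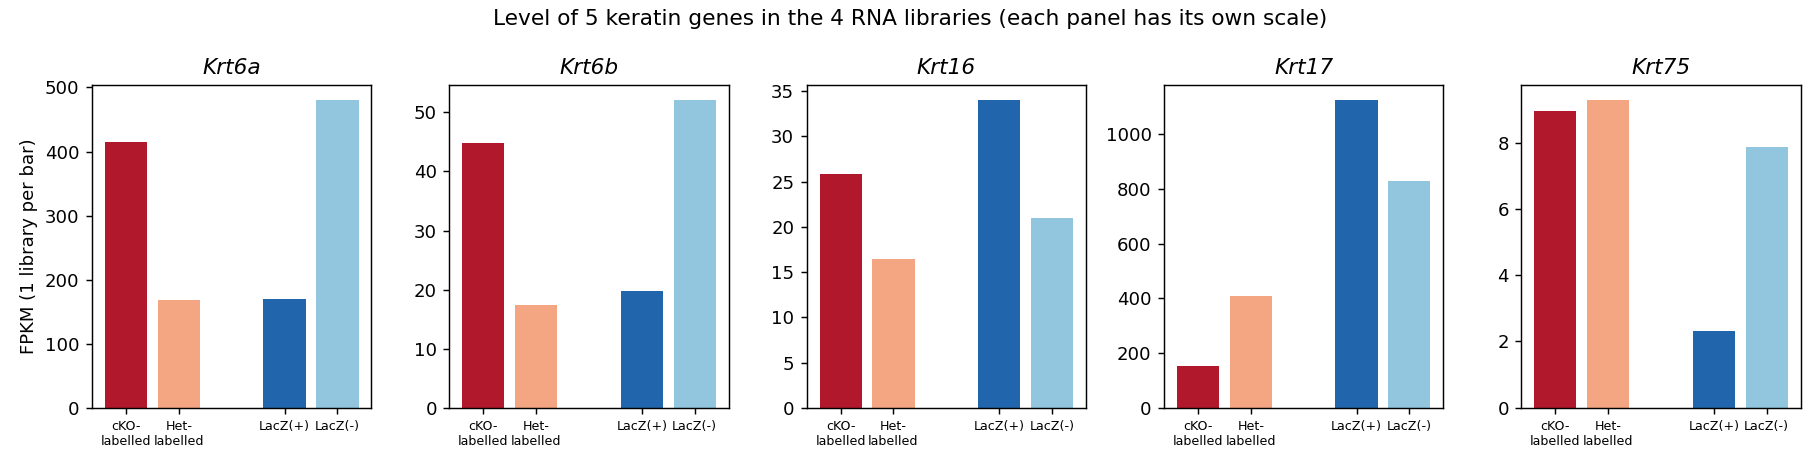
Level of each keratin gene in FPKM (vertical axis from 0, a separate scale per gene), 1 bar per library, with cKO-labelled and Het-labelled cells in red tones and LacZ(+) and LacZ(-) in blue tones. Krt6a and Krt6b have the same profile, high in cKO-labelled and LacZ(-) cells, while Krt17 is lowest in cKO-labelled cells at 152 FPKM and Krt75 is low in LacZ(+) cells at 2.32 FPKM.

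In cKO-labelled cells set against Het-labelled cells, 2 of the 5 keratins, Krt6a and Krt6b, were higher past the 2-fold line and Krt17 was lower past it. Across all 13014 measured genes (at least 1 FPKM in either library), 4.09% were past the line, with 1.80% higher and 2.29% lower. The members were chosen with this contrast in view, so nothing is read from their count. Of the 958 genes that reached 100 FPKM in either library, 8.66% were past the line. Krt6a had a difference that 30 of those 958 genes, itself included, reached or exceeded, and 32 of them, Krt17 included, were as low as Krt17 or lower. Taken relative to the summed FPKM of the basal keratins Krt5 and Krt14, a scaling chosen after the values were seen, the differences of Krt6a and Krt6b became 0.95 and 0.98, just inside the line, and that of Krt17 became -1.76.

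In the comparison of bulge cells with and without reporter activity, 3 of the 5 keratins, Krt6a, Krt6b and Krt75, were lower past the line in LacZ(+) cells, and none was higher past it. Of all 13283 genes measured in this pair, 7.27% were past the line, 620 higher (4.67%) and 346 lower (2.60%), and after centring on the median these were 804 and 224. Of the 1090 genes that reached 100 FPKM in either library, 11.1% were past the line, and 20 of them, Krt6a included, were as low as Krt6a or lower. The median difference over genes of at least 5 FPKM in each library was -0.17 in this pair and 0.07 in the first. After the same division by Krt5 and Krt14, Krt6b became -0.96, just inside the line, and Krt16 became 1.06, just past it.

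The sum over the 5 genes was close within each pair, and its make-up was not. It was 646 FPKM in cKO-labelled cells, against 619 FPKM in Het-labelled cells, and 1349 FPKM in LacZ(+) cells, against 1389 FPKM in LacZ(-) cells. Krt6a made up 64.1% of it in cKO-labelled cells and 27.2% in Het-labelled cells, while Krt17 made up 23.5% and 65.8% of the same sums. In LacZ(+) cells Krt6a made up 12.6% and Krt17 83.3%, and in LacZ(-) cells Krt6a made up 34.6% and Krt17 59.6%.

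As type II against type I chains, the summed FPKM of Krt6a, Krt6b and Krt75 was 2.63 times that of Krt16 and Krt17 in cKO-labelled cells, and 0.460 times in Het-labelled cells. The ratio was 0.166 in LacZ(+) cells and 0.636 in LacZ(-) cells. The cKO-labelled library was the single one in which the type II members exceeded the type I members. These are levels of RNA, and other keratins can pair with each of these chains. Without Krt15, which is listed at 0 in LacZ(-) cells, the 5 genes made up 6.30% of the summed keratin FPKM in cKO-labelled and 7.30% in Het-labelled cells, and 10.8% in LacZ(+) and 10.4% in LacZ(-) cells.

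**Figure D2:**
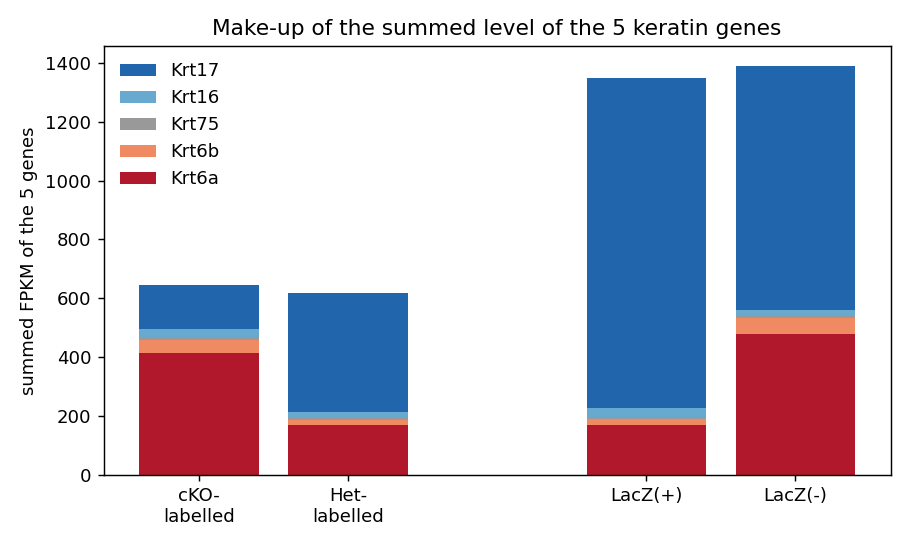
Summed FPKM of the 5 keratin genes (vertical axis) in each library (horizontal axis), with each gene as a segment: type II chains in red tones and grey at the bottom, type I chains in blue tones on top. The bars of a pair are of like height, 646 and 619 FPKM in cKO-labelled and Het-labelled cells and 1349 and 1389 FPKM in LacZ(+) and LacZ(-) cells, while the Krt6a segment is the larger one in the cKO-labelled and LacZ(-) libraries.

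Set beside the other keratins, the first pair showed few differences. Of 49 other keratin genes listed, 45 are in the tables and 17 were measured in this pair; none was higher past the line, and Krt24, a keratin of the bulge, was lower past it at 102 FPKM in cKO-labelled and 278 FPKM in Het-labelled cells (-1.43). The median over the 17 was 0.18, against 0.06 over all measured genes, of which 1.80% were higher and 2.29% lower past the line. Basal Krt5 stood at 6278 FPKM in cKO-labelled and 5272 FPKM in Het-labelled cells, and Krt14, its type I partner, at 2197 and 1380 FPKM. Krt5 is the gene next to Krt6a, and its difference of 0.25 was smaller than that of Krt6a. Gm5414, between Krt75 and Krt6b, stood at 6.11 and 4.09 FPKM in the same libraries (0.48).

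In the LacZ pair 19 other keratins were measured, with a median of 0.32, against -0.13 over all measured genes. Of these 19, 7 were higher past the line in LacZ(+) cells (4.67% of all measured genes) and 1 was lower (2.60%). The higher ones include the keratins of suprabasal epidermis and of the upper follicle. Krt1 stood at 395 FPKM in LacZ(+) and 135 FPKM in LacZ(-) cells, its partner Krt10 at 1491 and 633 FPKM, Krt77 at 759 and 326 FPKM, and Krt79, a keratin of the upper follicle, at 362 and 119 FPKM. Krt23 (1.01) and Krt78 (1.03) lay just past the line. The seventh is Krt15, for which no fold is given because of its 0. Krt25, an inner root sheath keratin, was lower past the line (-4.51), as were 3 of the 5 members.

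**Figure D3:**
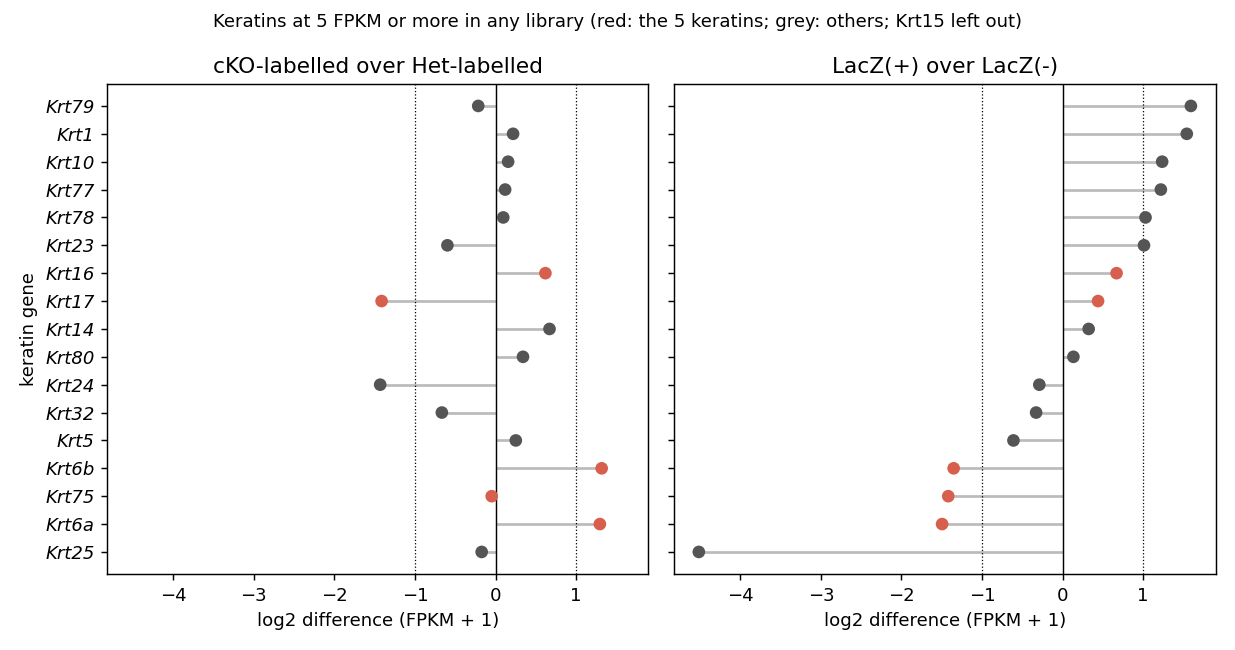
Log2 difference of FPKM + 1 for 17 keratin genes at 5 FPKM or more in any library, one row per gene, for cKO-labelled over Het-labelled cells (left) and LacZ(+) over LacZ(-) cells (right), with dotted 2-fold lines and the members in red. Krt15 is left out for its 0. Krt6a and Krt6b lie past the right line on the left and past the left line on the right. In the left panel Krt24 and Krt17, in separate rows, both lie past the left line at like differences.

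Cd34, the bulge surface marker, was lower past the line in the same direction as Krt6a, Krt6b and Krt75, at 223 FPKM in LacZ(+) and 516 FPKM in LacZ(-) cells (-1.21). It was the single one of the 7 outer bulge markers lower past the line. The 7 went both ways, with 3 above 0 and 4 below, and Krt15, listed at 0 in LacZ(-) cells, was higher past the line. Markers of neighbouring cell types also had other levels in LacZ(+) than in LacZ(-) cells. The 6 suprabasal epidermis markers summed to 2334 FPKM in LacZ(+) and 1147 FPKM in LacZ(-) cells. All 6 were above 0 in the log2 difference, and 3 were higher past the line (4.67% of all measured genes). The 6 markers of upper follicle and sebaceous cells found in the tables summed to 502 FPKM in LacZ(+) and 195 FPKM in LacZ(-) cells. The 8 inner root sheath markers found summed to 8.76 FPKM in LacZ(+) and 52.2 FPKM in LacZ(-) cells, of which Krt25 was 1.13 and 47.7 FPKM. The lower sum in LacZ(+) cells came from Krt25 alone. Every other marker of that list was above 0 in the log2 difference, at low levels, with Krt71 at 0.63 and Tchh at 0.08. The 10 hair shaft markers found summed to 9.58 FPKM in LacZ(+) and 10.1 FPKM in LacZ(-) cells. None of the suprabasal, upper follicle and inner root sheath markers found was listed at 0 in any library. Of the hair shaft markers, Krt36, Krt81 and Krt82 were listed at 0 in cKO-labelled cells, Krt36 and Krt81 in Het-labelled cells and Krt82 in LacZ(-) cells. The part of these cell types and of the bulge marker in the keratin differences was not tested. In the first pair the suprabasal sums were 911 FPKM in cKO-labelled and 833 FPKM in Het-labelled cells, and the inner root sheath sums were 4.91 and 5.20 FPKM. The suprabasal markers went both ways there, with 3 above 0 and 3 below, among them Lor (-0.77) and Flg (-0.76). The upper follicle and sebaceous sums were 223 FPKM in cKO-labelled and 203 FPKM in Het-labelled cells. Lgr6, a receptor of the upper follicle in that list, stood at 2.04 FPKM in cKO-labelled and 26.2 FPKM in Het-labelled cells (-3.16). It was the single one of the 5 measured in this pair past the line, and the 5 went both ways, with 3 above 0 and 2 below.

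Secreted signals and a matrix inhibitor that accompany Krt6 in inner bulge cells went different ways. Fgf18, a growth factor of the resting bulge, stood at 19.1 FPKM in cKO-labelled and 14.4 FPKM in Het-labelled cells (0.39), and at 7.19 FPKM in LacZ(+) and 23.97 FPKM in LacZ(-) cells (-1.61). In the LacZ pair this is the order of libraries of Krt6a, which Bmp6 also had and Timp3 did not. Bmp6, a BMP ligand, stood at 0.969 FPKM in cKO-labelled and 1.55 FPKM in Het-labelled cells, and at 1.75 FPKM in LacZ(+) and 3.35 FPKM in LacZ(-) cells. Timp3, an inhibitor of matrix proteases, stood at 6.76 FPKM in cKO-labelled and 7.72 FPKM in Het-labelled cells, and at 8.08 FPKM in LacZ(+) and 4.35 FPKM in LacZ(-) cells. Of these, Fgf18 in the LacZ pair was the single value past the line. The 5 keratins that share the label of inner bulge and companion layer also had different profiles here, by their own values given above.

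Krt6, Krt16 and Krt17 appear in wounds together with genes of activated keratinocytes. Of these genes, 8 of 10 measured in the first pair and 8 of 13 in the LacZ pair lay within the 2-fold line. Of all measured genes, 4.09% in the first pair and 7.27% in the LacZ pair were past it. In the first pair none was higher past the line (1.80% of all measured genes) and 2 were lower past it (2.29%). Of the 10, 4 reached 1 FPKM in Het-labelled cells alone, both of these included, so they could enter only with a lower value in cKO-labelled cells and no count or median is read from the list. The 2 were Sprr1b, a cornified envelope precursor, at 0.0362 FPKM in cKO-labelled and 7.52 FPKM in Het-labelled cells, and Defb14, a defensin listed at 0 in cKO-labelled cells and at 4.95 FPKM in Het-labelled cells. In the LacZ pair 4 were higher past the line (4.67% of all measured genes) and 1 lower (2.60%). Of the 13, 3 reached 1 FPKM in LacZ(+) cells alone, Sprr1b and Areg among them. Another 2 reached it in LacZ(-) cells alone, Defb14 among them. Each of these could enter only with its higher value in that library, so no count is read from the list in this pair either. The higher ones were Sprr1b (1.77), Sprr1a (1.58), the EGF receptor ligand Areg (1.38) and the gap junction gene Gjb2 (1.07), and Defb14 was listed at 0 in LacZ(+) and at 5.20 FPKM in LacZ(-) cells. S100a8 and S100a9, alarmins of wounded epidermis, stayed at or under 6.02 FPKM in every library.

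Factors known to act at Krt6, Krt16 or Krt17 promoters were measured for 20 of 22 listed genes in the first pair. Of these, 3 were higher past the line (1.80% of all measured genes) and 1 was lower (2.29%). The median was -0.05, against the same 0.06. The AP-1 genes Fos, Jun and Fosb were the higher ones. Fos stood at 938 FPKM in cKO-labelled and 348 FPKM in Het-labelled cells, Jun at 437 and 178 FPKM, and Fosb at 240 and 110 FPKM. Gli1, a hedgehog target and factor, stood at 11.8 FPKM in cKO-labelled and 29.4 FPKM in Het-labelled cells (-1.25), the direction of Krt17 in this pair. In the LacZ pair the 2 genes went opposite ways, Gli1 at -0.61 and Krt17 at 0.44. In the LacZ pair Fosb (1.05) was the single one of 21 measured past the line, against 7.27% of all measured genes. The median was -0.15, against the same -0.13, with 7 above 0 and 14 below. Of the other AP-1 genes measured there, Fos (0.59), Junb (0.15) and Jun (0.11) were above 0, and Jund (-0.71) and Fosl2 (-0.52) were below it. Krt6a and Krt6b were lower past the line in LacZ(+) cells. A link between these factors and the keratin differences was not tested in either pair. Nfe2l2, Stat3, Rela and Nfkb1 lay within the line in both pairs.

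Taken over both pairs, which share no library, 12500 genes were measured in each. Of these, 30 were higher past the line in cKO-labelled cells and lower past it in LacZ(+) cells, and Krt6a and Krt6b are among them. Leaving out small RNA, clone, Gm and Rik symbols as well as genes listed at 0 in any library, 16 are left, again with both. None of the 5 is among the 84 genes with the opposite combination, since Krt17 reached 0.44 in the LacZ pair.

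The genes with the most similar differences were taken by distance over the pair of log2 differences, among genes of at least 5 FPKM in all 4 libraries, with the 3 nearest named for each member. This is a likeness over 2 values and says nothing of shared control. The gene nearest to Krt6a was Krt6b, and the reverse also held, at a distance of 0.145. After it came S100a4, a calcium-binding protein gene, at 5913 FPKM in cKO-labelled and 2139 FPKM in Het-labelled cells and 268 FPKM in LacZ(+) and 837 FPKM in LacZ(-) cells. The third was Angptl7, a secreted angiopoietin-like protein gene, with differences of 1.53 and -1.58. For Krt6b the others were Stfa3 (1.06 and -1.31), a cysteine protease inhibitor gene, and Rabl2 (1.22 and -1.07), a small GTPase gene.

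Nearest to Krt17 was Phlda1, a stem cell marker of human follicles, at a distance of 0.022, with 8.92 FPKM in cKO-labelled and 25.1 FPKM in Het-labelled cells and 25.1 FPKM in LacZ(+) and 18.1 FPKM in LacZ(-) cells. Pdlim3, an actin-associated protein gene, followed with -1.45 and 0.52, and Cbx8, of the Polycomb complexes, with -1.19 and 0.48. Around Krt16 lay Cyp2b10 (0.67 and 0.62), a cytochrome P450 gene, Nfkbiz (0.65 and 0.61), a nuclear regulator of NF-κB targets, and Klf6 (0.55 and 0.61), a zinc finger factor. Around Krt75 lay Egln3 (-0.03 and -1.39), a prolyl hydroxylase of hypoxia-inducible factors, the BMP response gene Id3 (0.03 and -1.42) and the matrix gene Ltbp2 (0.05 and -1.43). Id3 stood at 163 FPKM in LacZ(+) and 438 FPKM in LacZ(-) cells, far above Krt75 in level. The 5 keratins thus fell in 4 separate places of the plot of both differences, with Krt6a and Krt6b together.

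**Figure D4:**
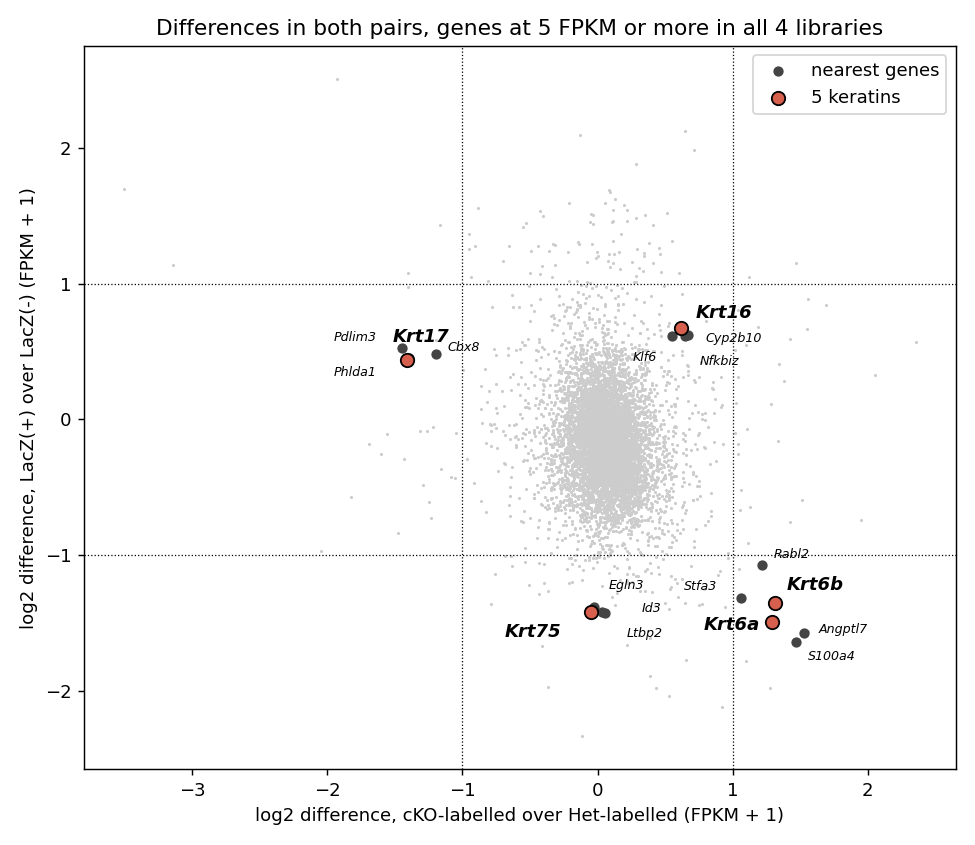
Log2 difference of FPKM + 1 for cKO-labelled over Het-labelled cells (horizontal axis) and LacZ(+) over LacZ(-) cells (vertical axis), for genes at 5 FPKM or more in all 4 libraries (grey), the 5 keratins (red) and their nearest genes (black), with dotted 2-fold lines. Krt75 is drawn although it is under 5 FPKM in LacZ(+) cells; Krt6a and Krt6b lie at the lower right, Krt17 at the left, Krt16 at the upper right inside the lines and Krt75 at the bottom centre.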

How the data were processed

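Groups came from the sample titles. The deposited values are FPKM, per the file headers, in 2 tables of 32091 rows, 1 per pair of libraries, and the first has the authors' own log2 ratio (cKO/Het), used only to check column direction. Cufflinks 2.1.1, TopHat2 2.0.4, TopHat, GRCm38 and mm9 are listed, with no roles, per the submitters' processing notes. The sources used here do not say how multi-reads and strand were handled. Coordinates are taken as mm9, which the submitters name beside GRCm38: for none of the 5 keratins do they overlap the interval in the RefSeq gene table of GRCm38.p6.

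Symbols turned into dates by a spreadsheet (25) were restored from Ensembl identifiers, and rows of a symbol were summed (Python 3.11.15, pandas 2.3.3). Each of the 5 keratins has 1 row per table. FPKM divides by a library total, so abundant features shift other values: the share of mt-Ts1 in the summed FPKM was 20.6% to 28.1%. Differences used a pseudocount of 1 and a minimum of 1 FPKM in either library, which understates changes of low genes. The steps were run on simulated data with exact fold changes and no noise. That checks the arithmetic only and says nothing of error rates with 1 library per group.

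The members and gene lists were chosen with earlier results of these data known. Named genes are the 5 members, other keratins at 5 FPKM or more, list genes past 2-fold, the inner bulge genes and the 3 genes nearest to each member; S100a8, S100a9, Gm5414, Krt42, Mitf, Lor, Tcf7l1, Ctnnb1, Axin2, Cd34 and the transcription factor genes within the line were added after their values were seen. Alternatives were other pseudocounts, minimums, scalings and row handling.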

Additional observations from a re-analysis of the deposited data

How the results depend on the processing

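Each of the 10 member differences was recomputed under 7 or 8 settings. None of the 74 values changed sign, and 69 kept their side of the 2-fold line. Some of them could not move: each keratin has 1 row per table, so taking the highest row changes nothing. The sum of Krt6a and Krt6b is 1 value per pair, counted for both genes. The count of 69 is therefore not a measure of stability. Relative to Krt5 and Krt14, a setting chosen after seeing the data, Krt6a and Krt6b fell inside the line in the first pair (0.95 and 0.98), and in the LacZ pair Krt6b fell inside it (-0.96) and Krt16 passed it (1.06). With a pseudocount of 5, Krt75 fell inside it in the LacZ pair (-0.81), as such a constant shrinks low values. Krt17 stayed between -1.76 and -1.39 in the first pair. Counts of all genes past the line, 532 in the first pair and 966 in the LacZ pair, became 303 and 460 with a pseudocount of 5, 242 and 604 without small RNA, Gm, Rik and clone names, and 83 and 121 with a minimum of 100 FPKM, the last chosen after seeing the data and counting fewer genes by construction. No paired analysis was possible because each group has 1 library. FPKM hide the depth, so no setting gives the counting error of a level, which bears most on Krt75.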
